A study of Mus musculus with 10 samples.

Results

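Proximal convoluted tubule cells were followed through 14 days of recovery from acute injury of the mouse kidney cortex, in single-cell RNA counts made by Drop-seq, which captures the RNA of each cell on a barcoded microbead. A cell was counted as proximal convoluted when at least 2 of the 4 genes Slc5a2, Slc5a12, Spp2 and Slc6a19 were detected and when it held no unique molecular identifier (UMI) of Slc7a13, Havcr1, Slc12a1 or Ptprc. These 8 genes chose the cells, so their levels are given only as a description. The rule took 5446 of 52797 cells (10.3%) that had at least 500 detected genes and at most 50% mitochondrial UMIs, out of 64803 barcodes. All kidneys came from mice aged 4 weeks and were sampled as kidney cortex. The control was 1 library of normal kidney, days 1, 2 and 4 after injury were 1 library each, and days 7, 11 and 14 were 2 libraries each. The labels give no strain, sex, genotype or kind of injury, and do not state whether both libraries of a day came from different animals, so the p-values measure only the spread between these libraries, which may be technical. The study asked whether injury brings back a developmental programme and loosens cell identity in the adult kidney.

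The proximal convoluted tubule is the first stretch of the nephron after the glomerulus. Its cells take back filtered glucose, amino acids, phosphate and bicarbonate through apical carriers, swallow filtered protein through the receptors megalin and cubilin, and pass organic anions from blood to urine through basolateral carriers. They make glucose from lactate and glutamine and run mostly on fatty acid oxidation. After injury, surviving proximal cells are known to lose part of this equipment, to switch on injury genes such as Havcr1, and to divide and differentiate again. Cells with a UMI of Havcr1 were removed by the rule, so what follows describes cells that kept convoluted markers and in which Havcr1 was not detected. Median depth of these cells was 1363 to 2523 UMIs per library, so some of them may have carried Havcr1 unseen.

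The cells carried genes of proximal tubule that the rule did not use. Slc34a1, the apical sodium-phosphate carrier, was higher in them than in all other kept cells of the same library in 10 of 10 libraries, at a median ratio of 3.11. Gpx3, the secreted glutathione peroxidase made by proximal tubule, was higher in 10 of 10 at a median ratio of 5.14, and Gatm, the first enzyme of creatine synthesis, in 10 of 10 at 5.06. The endocytic receptor genes Lrp2 (megalin) and Cubn (cubilin) were also higher in 10 of 10 libraries, at median ratios of 2.40 and 2.32. Kap, an androgen-regulated proximal gene, was higher in 4 of 10, at a median ratio of 0.862. Umod, the marker of the thick ascending limb, was lower in 10 of 10, at a median ratio of 0.0601, and Aqp2 of the collecting duct was lower in 10 of 10, at 0.197. These ratios compare CPM, UMIs scaled to a common library total, and are a description, since the cells were chosen by related genes.

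Cells just inside the rule, with exactly 2 markers, carried more Slc34a1 than cells with exactly 1 marker and none of the excluded genes. In the control Slc34a1 stood at 2614 CPM in the 311 cells with 2 markers and at 1421 CPM in the 475 cells with 1 marker. Spp1, an injury gene, went the other way, at 94.4 CPM against 677 CPM, but not in every library, and on day 7 stood at 7180 against 6577 CPM in replicate 1 and at 3745 against 7848 CPM in replicate 2. On day 7 the cells with 2 markers held 1951 and 2349 CPM of Slc34a1 and those with 1 marker held 439 and 846 CPM. Kap in day 7 replicate 1 was lower with 2 markers than with 1, at 198 against 286 CPM. Cells on either side of the threshold thus held proximal transcripts.

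Depth and library quality varied, and the day 7 libraries were the thinnest. Summed member UMIs ran from 139739 in day 7 replicate 1 to 4406277 in day 2, and members from 81 to 1141 cells per library. Median mitochondrial share of members was highest in the control (20.6%) and lowest in day 7 replicate 1 (5.95%). Replicate libraries differed by more than sampling noise on each of the 3 replicated days, with chi-square per degree of freedom from 3.29 to 6.57, so none was a copy of the other. Only 1 member barcode was shared by any of the 45 pairs of libraries. Every library held Y-linked Ddx3y at 44.3 CPM or more and Xist at 1.01 CPM or less. In cells of the macrophage kind (Ptprc together with C1qa, C1qb or Lyz2), which should lack the convoluted markers, at most 8.80% of cells held at least 2 of them. This background is used below as a scale for RNA of other cells in a droplet. How much of it was free RNA and how much came from droplets with 2 cells was not tested.

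The share of convoluted cells among all kept cells was lowest on day 7, and lay above the control value on day 2 and in both libraries of days 11 and 14. Among cells with at most 25% mitochondrial UMIs day 11 did not keep that order, with 10.2% and 8.61% against 9.91% in the control. Nor did it before the excluded genes were applied. Cells with 2 or more markers were then 15.5% of kept cells in the control and 13.6% and 12.9% on day 11. Day 2 (37.1%) and day 14 (27.0% and 32.1%) stayed above the control. With the full rule the share was 8.12% in the control (exact Clopper-Pearson 95% interval 7.45% to 8.83%). The libraries of days 1, 2 and 4 held 3.59%, 27.9% and 7.48%. On day 7 it was 1.96% ± 0.388 (SD, n = 2), on day 11 9.41% ± 1.10 (SD, n = 2) and on day 14 15.6% ± 3.36 (SD, n = 2). The 2 values of day 7 lay below every other library, and the 2 values of day 14 lay below only day 2. The macrophage-like cells with 2 markers set a scale for RNA of other cells in a droplet, over another denominator, since cells with Ptprc were left out of the convoluted class. They were 1.19% of macrophage-like cells on day 1, 8.80% on day 2, 5.91% on day 4 and 0.678% and 0.694% on day 7, beside convoluted shares of 3.59%, 27.9%, 7.48%, 2.24% and 1.69%. In replicate 2 of day 11 they were 7.14% (2 of 28 cells, exact interval 0.877% to 23.5%) beside 8.63%, and in replicate 2 of day 14 they were 5% (2 of 40 cells, 0.611% to 16.9%) beside 17.9%. None was found among 43 macrophage-like cells of the control, 57 of day 11 replicate 1 and 32 of day 14 replicate 1, which allows up to 8.22%, 6.27% and 10.9% (exact Clopper-Pearson). The part of free RNA in the shares was not tested. Intervals cover counting error only, and no test of the shares was made.

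Because a cell enters by detected markers, its share also moves with depth. Among cells with at least 1000 UMIs, each thinned to 1000, the share was 4.54% in the control, 3.22% on day 1, 24.1% on day 2, 7.72% on day 4, 1.52% ± 0.50 (SD, n = 2) on day 7, 6.91% ± 1.05 (SD, n = 2) on day 11 and 13.1% ± 2.18 (SD, n = 2) on day 14. Cells with fewer UMIs were left out of these shares. They ranged from 359 of 6134 kept cells in the control to 1274 of 3621 in day 7 replicate 1, so the cells counted differ too. The order of day 4 and the control turned with thinning. The exclusion of Havcr1, the injury receptor KIM-1, removed a changing part of the cells with 2 or more markers. It took 1.16% of them in the control, 69.0% on day 1, 8.56% on day 2, 39.5% on day 4, 44.8% and 30.2% on day 7, and at most 1.23% in any library of days 11 and 14. What fraction of convoluted cells survived therefore cannot be told apart from how many of them carried Havcr1.

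Straight-segment cells were scarcer still in the first week. These were defined by Slc7a13 with at least 1 of Slc22a7, Cyp7b1, Slc22a30 and Acsm3, and by no UMI of Havcr1, Slc12a1 or Ptprc. They mark the S3 segment, the last stretch of the proximal tubule and the one known to be most sensitive to loss of oxygen. They made up 27.1% of control cells, but a single cell of the day 1 library, 1.35% of cells on day 2, 4.63% on day 4, and 1 and 56 cells on day 7. They returned to 29.7% ± 7.85 (SD, n = 2) on day 11 and 35.3% ± 5.83 (SD, n = 2) on day 14. On day 2 convoluted cells outnumbered straight cells by 1141 to 55, against 498 to 1661 in the control. As with convoluted cells, the loss of straight cells cannot be told apart from how many of them carried Havcr1.

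**Figure D1:**
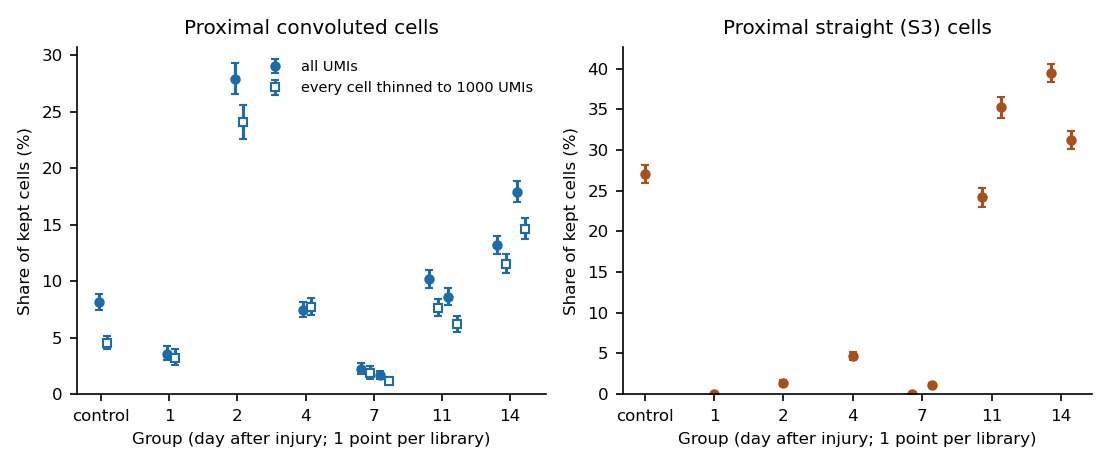
Share of kept cells (%) that were proximal convoluted (left, filled points with all UMIs) or proximal straight (right), by group, with 1 point per library and exact 95% binomial intervals. Open squares on the left give the share among cells with at least 1000 UMIs, each thinned to 1000. Convoluted cells peak at 27.9% on day 2 and fall to 2.24% and 1.69% on day 7, and straight cells are nearly absent on days 1 and 7.

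Levels of genes are given below as CPM of the summed member counts of a library after TMM scaling, a correction for differences in RNA composition. In such sums, fewer cells with a transcript and less transcript per cell cannot be told apart. Days 1, 2 and 4 have 1 library each and are set beside the single control with no test, and a gene was counted there when it differed at least 4-fold and reached 50 CPM in either library. Days 7, 11 and 14 were compared by edgeR's quasi-likelihood F test over 11101 genes with Benjamini-Hochberg adjustment at 0.05, in which the spread came from the replicated days alone and was applied to the single control. All 38 injury genes and all 18 interferon and MHC class I genes passed its filter on low counts, as did 16 of 17 apical carriers, 15 of 16 basolateral carriers, 15 of 16 brush border genes, 19 of 20 genes of fatty acid oxidation and 21 of 22 of amino acid and small molecule metabolism.

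On day 1 the convoluted cells that remained carried acute-phase and injury transcripts and held less of some transport and metabolic transcripts than the control cells. Of 3646 genes with enough counts, 2.93% were 4-fold higher and 4.22% were 4-fold lower than in the control (7.16% in all). Of the 38 genes of the injury list 23 reached 50 CPM in either library, and 17 of these were 4-fold higher and none lower. A list gene near 0 in the control could enter such a count only by being higher in the injured library, so nothing is read from it here or on days 2 and 4. Fgg, the gamma chain of fibrinogen, went from no UMI in the control to 1258 CPM (exact Poisson interval 1141 to 1383), at least 464-fold against a floor of 3 control counts. Fgb, the beta chain, stood at 335 CPM and Sprr2f, a small proline-rich squamous-type protein, at 217 CPM, both with no UMI in the control. Fgg was far above the macrophage-like cells of the same library, which held 71.4 CPM before TMM scaling, against 1350 in the convoluted cells. The neutrophil genes S100a8 and S100a9 were at 225 and 326 CPM in the convoluted cells of day 1, with the 4 neutrophil markers summing to 672 CPM in plain CPM there against 5493 CPM in macrophage-like cells. All 4 globin markers were 4-fold higher on day 1, with a sum of 1025 plain CPM against 9.81 in the control. The part of neutrophil and red cell RNA in the day 1 values was not tested.

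Some carriers and enzymes were lower on day 1. The list of amino acid and small molecule metabolism had 18 of its 22 genes at 50 CPM in either library, of which 10 were 4-fold lower and 1 higher, and the basolateral carriers had 15 of 16, of which 4 were lower and 1 higher. Of 17 apical carriers 11 reached that level and 3 of these were lower, and of 20 fatty acid oxidation genes 15 did and 1 was lower, with none higher in either list. Slc5a8, an apical monocarboxylate carrier, had no UMI on day 1 against 69.6 CPM in the control. Slc22a6 and Slc22a8, the organic anion carriers OAT1 and OAT3, were at 113 CPM against 578 and at 17.8 CPM against 184. Pck1, the rate-limiting enzyme of gluconeogenesis, was at 178 CPM against 1023. Of 10 proximal transcription factors 6 reached 50 CPM in either library, and none of these passed 4-fold.

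The day 2 cells were marked by interferon-stimulated genes. Ifit1, an antiviral protein that binds foreign RNA, stood at 1419 CPM (interval 1384 to 1454), Rsad2 (viperin) at 1056 CPM, Ifit3 at 833 CPM and Isg15, a ubiquitin-like modifier, at 666 CPM. None of these 4 had a UMI in the control, so the folds are at least 523, 389, 307 and 245. The interferon and MHC class I list had 17 of its 18 genes at 50 CPM in either library. Of these, 14 were 4-fold higher. A list gene far below that level in the control could enter only by being higher on day 2. Nothing is therefore read from this count. Among all 3593 genes with enough counts, 3.45% were higher and 1.14% lower (4.59% in all). On day 1 Ifit1 had been at 2.97 CPM, and it was at 58.6 CPM on day 4 and 5.70 and 8.14 CPM on day 7. Immune cells of the day 2 library carried these genes too, and its macrophage-like cells held 796 plain CPM of Ifit1 and 1623 of Rsad2. The convoluted cells held 1437 and 1070 plain CPM. The convoluted cells thus had 181% of the macrophage-like level for Ifit1, 101% for Ifit3, 65.9% for Rsad2 and 37.8% for Isg15. A single library carries the day 2 values, so they have no replicate check, and counts of Ifit family members with similar sequence can be split between them in a way the sources used here do not give.

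The promoters of these 4 genes are shown because they hold the letters of the interferon-stimulated response element, so their matches are no test. I830012O16Rik, at 681 CPM on day 2 with no UMI in the control, ranked between Ifit3 and Isg15 and is not printed. The motif searched was GAAANNGAAA or its reverse complement TTTCNNTTTC on the printed strand, in the 250 bases before each start, taken from RefSeq promoters of build GRCm38.p6. Capitals mark the matches, which overlap in Isg15. The windows lie at chr19:34640760-34640838 (+ strand) for Ifit1, chr19:34583348-34583441 (+ strand) for Ifit3, chr12:26456538-26456597 (- strand) for Rsad2 and chr4:156200850-156200921 (- strand) for Isg15, each upstream of the gene and outside it, printed 5′ to 3′ on the strand of the gene.
Ifit1: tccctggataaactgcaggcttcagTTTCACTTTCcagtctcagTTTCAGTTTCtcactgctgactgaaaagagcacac
Ifit3: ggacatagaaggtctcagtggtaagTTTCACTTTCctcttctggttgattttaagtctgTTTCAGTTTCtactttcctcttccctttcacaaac
Rsad2: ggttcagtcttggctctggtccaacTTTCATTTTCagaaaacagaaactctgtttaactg
Isg15: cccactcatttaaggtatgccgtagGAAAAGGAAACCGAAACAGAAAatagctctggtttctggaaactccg
The motif occurred 2 times in the windows of Ifit1 and Ifit3, 1 time in Rsad2 and 3 times in Isg15. It was present upstream of 936 of all 27025 genes with a promoter in the table (3.46%). Of the 3593 genes with enough counts for the day 2 comparison 2671 had a promoter in the table, and it was present in 95 of these (3.56%), and among the 90 matched genes 4-fold higher on day 2 in 29 (32.2%), out of 124 such genes in all. A match describes letters only and is not a bound site.

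Convoluted genes on day 2 were nearer to the control than on day 1, although the carriers named above stayed low. Only 1.14% of genes were 4-fold lower, and none of 9 gluconeogenesis and fructose genes passed 4-fold, nor did any of the 7 of 10 proximal transcription factors that reached 50 CPM in either library. Slco1a1, an organic anion transporting polypeptide, was at 6.05 CPM against 379.9 CPM in the control. Slc22a6 was at 206 CPM and Miox, the proximal enzyme that breaks down inositol, at 2428 CPM against 2646. On day 4 the antigen-presentation genes H2-K1 and B2m stood above the control. The interferon and MHC class I list had 15 of its 18 genes at 50 CPM in either library, and all 15 were 4-fold higher. A list gene far below that level in the control could enter only by being higher on day 4. Nothing is therefore read from this count. Among all 3651 genes with enough counts, 3.59% were higher and 1.73% lower (5.31% in all). H2-K1, a class I heavy chain, was at 1224 CPM on day 4 against 61.5 CPM in the control, and B2m, its light chain, at 3637 against 406 CPM. Cxcl10, an interferon-induced chemokine, stood at 117 CPM with no UMI in the control.

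On day 7 many carriers and metabolic enzymes were below the control, and injury and antigen-presentation genes were above it. Of 11101 genes, 549 (4.95%) were higher and 616 (5.55%) lower than in the control (edgeR, 1165 or 10.5% in all, with 681 without day 7 replicate 1 and 708 without replicate 2). Both organic anion carriers fell. Slc22a6 was at 578 CPM in the control, 113, 206 and 176 CPM in the libraries of days 1, 2 and 4, 108 with 126 for day 7, 629.6 with 596 for day 11, and 649 with 757 for day 14. The day 1 to day 7 libraries all lay below the control and the libraries of days 11 and 14 all lay above it (log2 change -2.29, SE 0.26, adjusted p 2.6e-06, edgeR). Slc22a8 ran in parallel, at 184 CPM in the control, 17.8, 54.2 and 48.4 CPM in the libraries of days 1, 2 and 4, 28.5 with 16.3 for day 7, 173 with 217 for day 11, and 183 with 219 for day 14 (log2 change -3.09, SE 0.41, adjusted p 2.5e-05, edgeR). Its day 7 values rest on 5 and 4 UMIs and did not overlap with the control or any library of days 11 and 14.

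Other carriers of the same groups fell as well on day 7. Slc22a12, the urate exchanger URAT1, had 57.0 and 163 CPM against 833 (log2 change -2.84, SE 0.32, adjusted p 2.3e-06, edgeR, and -3.86 without day 7 replicate 2). Slc13a3, which brings dicarboxylates into the cell and so drives anion exchange, had 96.9 and 97.6 CPM against 354 (log2 change -1.86, SE 0.28, adjusted p 1.1e-04, edgeR). Of the 16 apical carriers measured 6 fell and 2 rose on day 7, and of the 15 basolateral carriers 6 fell and 3 rose, with median log2 changes of -0.86 and -0.54 against 0 for all genes. The phosphate carrier gene Slc34a1 was lower by a smaller margin, 1635 and 2148 CPM against 3328 (log2 change -0.81, SE 0.23, adjusted p 0.024, edgeR), and missed the threshold without day 7 replicate 1 (log2 change -0.62, adjusted p 0.10). Its day 7 level was above 1178 CPM, the level of day 1.

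Transcripts of some genes of glucose production and small molecule metabolism were lower too. Pck1 was at 1023 CPM in the control, 178, 485 and 430.3 CPM in the libraries of days 1, 2 and 4, 188 with 256 for day 7, 1111 with 1186 for day 11, and 867 with 1007 for day 14 (log2 change -2.18, SE 0.24, adjusted p 2.1e-06 on day 7, edgeR). The day 7 values were close to that of day 1 and the values of days 11 and 14 surrounded the control. G6pc, which releases free glucose in the last step of the pathway, was at 74.1 and 65.1 CPM against 386 (log2 change -2.48, SE 0.29, adjusted p 4.6e-06, edgeR). Of 9 gluconeogenesis and fructose genes 4 fell and none rose. The amino acid and small molecule list had 13 of 21 genes lower and 1 higher (median -1.63, or -1.18 with a gene that had no UMI on day 7 set to its bound), and fatty acid oxidation had 5 of 19 lower and none higher. Cyp4b1, a cytochrome P450 fatty acid hydroxylase, was at 2850.0 CPM in the control, 187, 712 and 917 CPM in the libraries of days 1, 2 and 4, 154 with 521 for day 7, 2802 with 3133 for day 11, and 2090.0 with 2426 for day 14 (log2 change -3.02, SE 0.33, adjusted p 2.1e-06 on day 7, edgeR). Without day 7 replicate 2 its change was -4.20.

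The 2 day 7 libraries stood apart in several of these genes. Kap was at 35669 CPM in the control, 1293, 3400.2 and 5212 CPM in the libraries of days 1, 2 and 4, 359 with 3820.0 for day 7, 28746 with 24514 for day 11, and 16362 with 16075 for day 14. On day 7 replicate 1 lay far below replicate 2, and both lay below the control (log2 change -4.07, SE 0.59, adjusted p 6.5e-05, edgeR, with -3.21 without replicate 1 and -6.62 without replicate 2). In the control, 97.4% of macrophage-like cells held a UMI of Kap after thinning to 1000 UMIs against 97.6% of convoluted cells, at median depths of 1497 and 1999 UMIs before thinning, with 98.8% of convoluted cells and 97.7% of macrophage-like cells before it. The part of free RNA in the change of Kap was not tested. Inmt, an N-methyltransferase, had no UMI in replicate 1 and 28.5 CPM in replicate 2 against 625 CPM in the control (log2 change -5.24, SE 0.43, adjusted p 4.8e-08, edgeR). Leaving out replicate 1 brought its log2 change to -4.44, and leaving out replicate 2 leaves no UMI on day 7. Miox was at 313 and 1351 CPM against 2646 CPM, and its call was lost without replicate 1 (log2 change -0.96, adjusted p 0.086). BC021785 and Angptl7 were also among the genes that fell most, from 919 to 103 and 20.3 CPM and from 765 to 45.6 and 81.4 CPM, as was mt-Rnr1, the small ribosomal RNA of mitochondria, from 20110.1 to 940.1 and 1977 CPM, which is a description only, since the rule for keeping cells used mitochondrial UMIs. The change of BC021785 was -5.48 without replicate 1 and -3.15 without replicate 2.

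Of 10 genes of protein uptake 1 fell and 1 rose on day 7, where 10.5% of all genes were called. The one that fell was Lrp2, at 2633 CPM in the control, 729.7, 1135 and 1026 CPM in the libraries of days 1, 2 and 4, 792 with 699.7 for day 7, 1029.6 with 939 for day 11, and 1822 with 1743 for day 14 (log2 change -1.82, SE 0.21, adjusted p 4.3e-06 on day 7, edgeR). All injured libraries lay below the control, those of day 14 nearest to it. Dab2, the adaptor that links megalin to clathrin, was at 488 CPM in the control, 543, 578 and 598 CPM in the libraries of days 1, 2 and 4, 473 with 496 for day 7, 479 with 453 for day 11, and 588 with 666 for day 14 (log2 change -0.01 on day 7, adjusted p 0.99, edgeR), and the injured libraries lay on both sides of the control. Cubn had 68.4 and 57.0 CPM on day 7 against 78.7 (adjusted p 0.6, edgeR). Ctsb, the lysosomal protease cathepsin B, was the gene that rose, from 291 to 1174 and 724 CPM (log2 change 1.69, SE 0.27, adjusted p 2.1e-04, edgeR). In plain CPM the convoluted cells of those libraries held 1474 and 861 of it and macrophage-like cells 1853 and 1856. Of 15 brush border genes 2 fell (Ggt1 and Mep1a) and none rose.

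Among 10 proximal transcription factors 1 fell on day 7 and none rose. It was Ppara, the nuclear receptor that drives fatty acid oxidation, with 5.70 and 20.3 CPM against 48.8 (log2 change -1.78, SE 0.55, adjusted p 0.04, edgeR), and its call was lost without either day 7 library (adjusted p 0.22 without replicate 1 and 0.055 without replicate 2). Hnf4a, the central factor of proximal identity, had 108 and 224 CPM against 294 (log2 change -0.77, adjusted p 0.11, edgeR), but passed without replicate 2 (log2 change -1.43, adjusted p 0.024). Maf, another transcription factor of the list, had 1584 and 2128 CPM against 1737 (adjusted p 0.84, edgeR). Slc4a4, the basolateral bicarbonate carrier, Fbp1 of glucose production and Gpx3 also missed the threshold, at log2 changes of -0.44, -0.62 and -0.14 and adjusted p of 0.24, 0.08 and 0.8 (edgeR). A p above the threshold does not show that these levels were equal. Dab2 and Maf were picked after their values had been seen.

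Some carriers rose on day 7. Slc13a1, the apical sulfate carrier, was at 245 CPM in the control, 721, 409 and 908 CPM in the libraries of days 1, 2 and 4, 724 with 606 for day 7, 382 with 409 for day 11, and 321 with 392 for day 14 (log2 change 1.43, SE 0.24, adjusted p 3.8e-04 on day 7, edgeR). Every injured library lay above the control, with the highest values on days 1, 4 and 7. The others move amino acids and small peptides. Slc7a7 and Slc7a8 are light chains of basolateral amino acid exchangers that pair with the heavy chain Slc3a2, and Slc15a2 takes up peptides. Slc7a7 was at 145 CPM in the control, 181, 429.7 and 449 CPM in the libraries of days 1, 2 and 4, 296 with 321 for day 7, 185 with 277 for day 11, and 361 with 381 for day 14 (log2 change 1.10, SE 0.28, adjusted p 0.012 on day 7, edgeR). Slc3a2 was at 296 and 167 CPM against 94.1 (log2 change 1.26, SE 0.31, adjusted p 0.0098, edgeR), Slc7a8 at 108 and 57.0 against 21.7 (log2 change 1.86, SE 0.45, adjusted p 0.0093, edgeR) and Slc15a2 at 62.7 and 44.7 against 15.4 (log2 change 1.76, SE 0.48, adjusted p 0.019, edgeR). All 9 injured libraries lay above the control in Slc7a7, Slc7a8 and Slc3a2. With 1 day 7 library left out some of these calls were lost, Slc7a7 without replicate 2 (adjusted p 0.085) and Slc7a8, Slc3a2 and Slc15a2 without replicate 1 (adjusted p 0.15, 0.13 and 0.12). Slc15a2 also missed the threshold in members without a UMI of C1qa, C1qb, C1qc, Tyrobp, Fcer1g or Cd52 (adjusted p 0.097, edgeR).

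**Figure D2:**
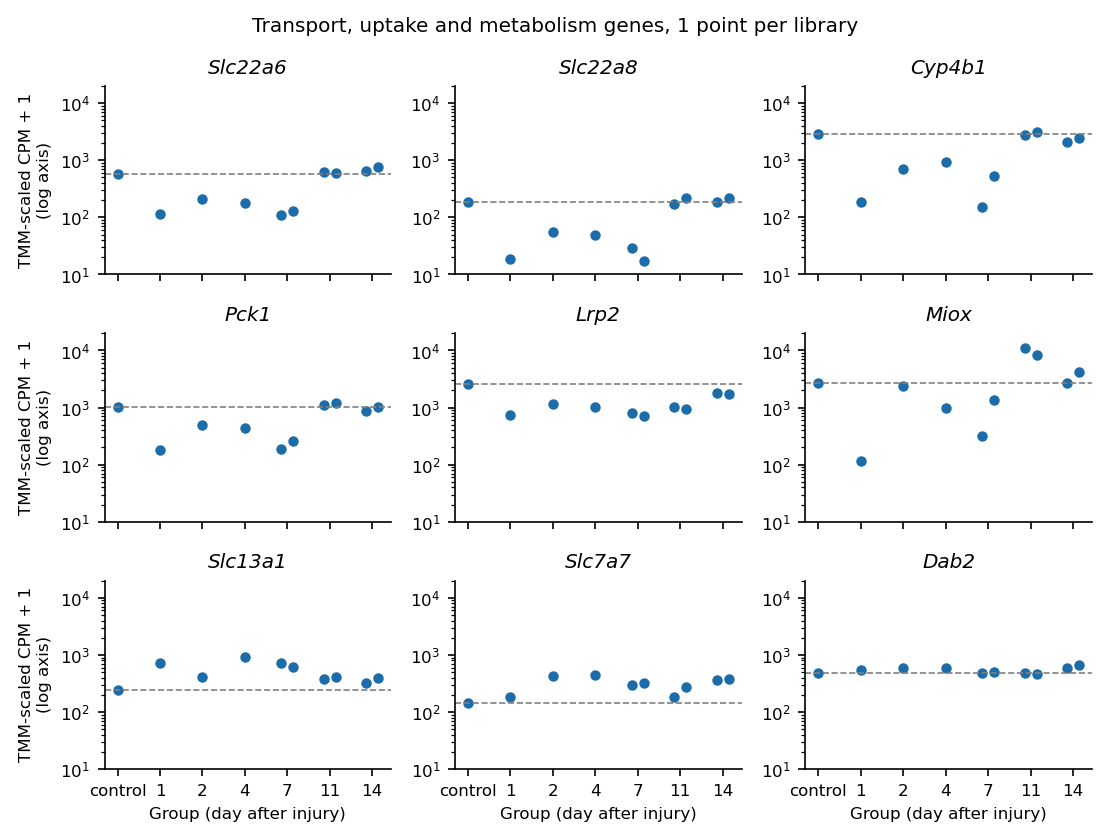
TMM-scaled CPM plus 1 (log axis) of 9 genes of transport, uptake and metabolism in proximal convoluted cells by group, with 1 point per library and the control level as a dashed line. Slc22a6, Slc22a8, Cyp4b1 and Pck1 lie below the line through day 7 and near it on days 11 and 14, Miox passes it on day 11, Slc13a1 and Slc7a7 lie above it in all injured libraries, and Dab2 stays near it.

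Injury genes were raised on day 7 in most of the list. Of 38 injury and dedifferentiation genes 29 were higher and none lower than in the control (median log2 change 4.44, or 3.16 with genes at 0 in a group set to their bound). C3, the central complement protein, was at 2.71 CPM in the control, 225, 52.2 and 273 CPM in the libraries of days 1, 2 and 4, 741 with 1107 for day 7, 6.14 with 17.8 for day 11, and 11.3 with 2.33 for day 14. Its control level rests on 3 UMIs, so the fold on day 7 is 352 with a counting interval of 119 to 1712 (adjusted p 1.6e-08, edgeR). Vcam1, an adhesion molecule, was at 0 CPM in the control, 14.8, 22.4 and 84.6 CPM in the libraries of days 1, 2 and 4, 159.5 with 175 for day 7, 3.68 with 2.75 for day 11, and 1.88 with 0.93 for day 14, with no UMI in the control and at least 62.1-fold on day 7 (adjusted p 4.7e-08, edgeR). Fgg was still at 450.1 and 118 CPM, at least 94.5-fold over the control floor, and Cp, the copper oxidase ceruloplasmin, was at 353 and 329.5 CPM against 2.71. For these genes the convoluted cells exceeded the macrophage-like cells of their own library. C3 had 862% and 1564% of the macrophage-like level, Fgg 5695% and 2885%, Vcam1 195% and 375%, and Cp 147% and 243%.

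Several classical injury genes were near or below the macrophage-like level. Spp1, the secreted phosphoprotein osteopontin, was at 105 CPM in the control, 11132, 1847 and 2211 CPM in the libraries of days 1, 2 and 4, 4934 with 3657 for day 7, 333 with 384 for day 11, and 263 with 321 for day 14 (log2 change 5.35, SE 0.33, adjusted p 1.0e-09 on day 7, edgeR). All injured libraries lay above the control, by far the highest being day 1. Convoluted cells held 109% of the macrophage-like level on day 1 and 115% and 73.6% on day 7, and 96.4% of macrophage-like cells had a UMI of Spp1 on day 1 after thinning against 96.3% of convoluted cells (every cell of either kind before thinning, at median depths of 1292 and 1765 UMIs). Clu (clusterin), Lcn2 (the iron-binding injury protein NGAL) and S100a6 stood at 729 and 268, 154 and 40.7 and 114 and 106 CPM on day 7 against 61.5, 0.904 and 2.71 in the control and passed (adjusted p 0.0048, 2.4e-04 and 9.2e-07, edgeR), but reached only 20.1% and 10.1%, 30.1% and 4.81%, and 31.3% and 21.4% of the macrophage-like level. Shares and levels of this kind cannot tell background from expression in either kind of cell. No expression by convoluted cells is read from them. The call of Clu was lost without replicate 1 (adjusted p 0.16), and the log2 change of Lcn2 was 5.37 without replicate 1 and 7.29 without replicate 2.

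Antigen-presentation genes were also raised on day 7. Of 18 interferon and MHC class I genes 11 were higher and none lower (median 4.13, or 3.09 with bounds). H2-K1 was at 61.5 CPM in the control, 368, 507 and 1224 CPM in the libraries of days 1, 2 and 4, 1231 with 1404 for day 7, 66.3 with 67.3 for day 11, and 528 with 276 for day 14 (log2 change 4.42, SE 0.36, adjusted p 4.8e-08 on day 7, edgeR). Levels climbed through day 7, met the control on day 11 and were again above it on day 14. B2m was at 406 CPM in the control, 1192, 2150.3 and 3637 CPM in the libraries of days 1, 2 and 4, 3362 with 3576 for day 7, 600.1 with 533 for day 11, and 1639 with 1004 for day 14 (log2 change 3.09, SE 0.30, adjusted p 3.7e-07 on day 7, edgeR). It was highest on days 4 and 7, and every injured library lay above the control. Convoluted cells held 108% and 95.8% of the macrophage-like level of H2-K1 on day 7, and 77.5% and 74.2% for B2m. Class II genes, normally of antigen-presenting cells, were also there. Cd74, the invariant chain, was at 917 and 1082 CPM against 8.14 (log2 change 6.93, SE 0.81, adjusted p 4.5e-06, edgeR), and H2-Ab1, a class II beta chain, at 746 and 883 against 9.95 (log2 change 6.35, SE 0.67, adjusted p 1.2e-06, edgeR). Of 15 immediate early genes, a group that tissue dissociation also induces, 5 were higher (Junb, Egr1, Ier3, Klf6 and Zfp36) and none lower, and the part of dissociation was not tested.

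RNA of other cells moved with these changes, that of macrophages among them. All 9 macrophage markers, Cd74 among them, were higher on day 7 than in the control. They summed to 30.9 plain CPM in the control convoluted cells, with 6 of 9 at 0, and to 3829 and 3854 on day 7, with none at 0. Lyz2 went from no UMI to 627 and 875 CPM, at least 284-fold over the floor (adjusted p 3.4e-10, edgeR), and was found in 53.3% and 27.5% of thinned convoluted cells (65.4% and 41.4% unthinned) against 89.9% and 90.6% of macrophage-like cells (98.9% and 97.2%). As a percent of the macrophage-like level, Lyz2 stood at 6.75% and 7.86%, C1qb at 12.5% and 4.80% and Tyrobp at 9.73% and 8.71%, whereas Cd74 stood at 50.9% and 32.9% and H2-Ab1 at 47.0% and 29.3%. On day 4 the same percentages were 7.19% for Lyz2, 1.94% for C1qb, 48.2% for Cd74 and 60.3% for H2-Ab1. In members without a UMI of C1qa, C1qb, C1qc, Tyrobp, Fcer1g or Cd52, which were 41 of 81 and 65 of 87 on day 7, H2-K1, B2m, Cd74, H2-Ab1, C3 and Vcam1 were also called higher than in the control. This selection did not screen Lyz2, Apoe or Cd74. In both day 7 libraries more members held Lyz2 than were left out, so cells with Lyz2 remained. The selection was added after the data had been seen. All 4 globin markers were also higher on day 7 than in the control, although their sum was 1145 plain CPM in replicate 1 and 48.4 in replicate 2. Ccl5, a chemokine and the only one of 4 T and NK cell markers with enough counts, was higher too, at 222 and 324 plain CPM against 0.754 from 1 UMI in the control (257-fold, counting interval 45.1 to 10260). Of 4 neutrophil markers 1, S100a8, was called higher. The 4 summed to 1.51 plain CPM in the control and to 50.1 and 19.3 on day 7. Transcripts of other tubule segments were lower in the convoluted cells of day 7. All 3 distal convoluted markers were called lower, their sum going from 175 plain CPM to 7.16 and 24.2 with 2 of 3 at 0 in each library. Of 3 thick limb markers with enough counts 2 were lower (Umod and Egf), the sum of all 4 going from 203 to 57.2 and 58.0, and 2 of 6 collecting duct markers were lower (Aqp2 and Aqp3), with sums of 388 in the control and 437 and 160 on day 7. Of the 10 straight-segment genes 6 had enough counts, of which 4 were lower and 1, Akr1c18, higher. The part of these other cells in the day 7 calls, of carriers and enzymes as of injury genes, was not tested.

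**Figure D3:**
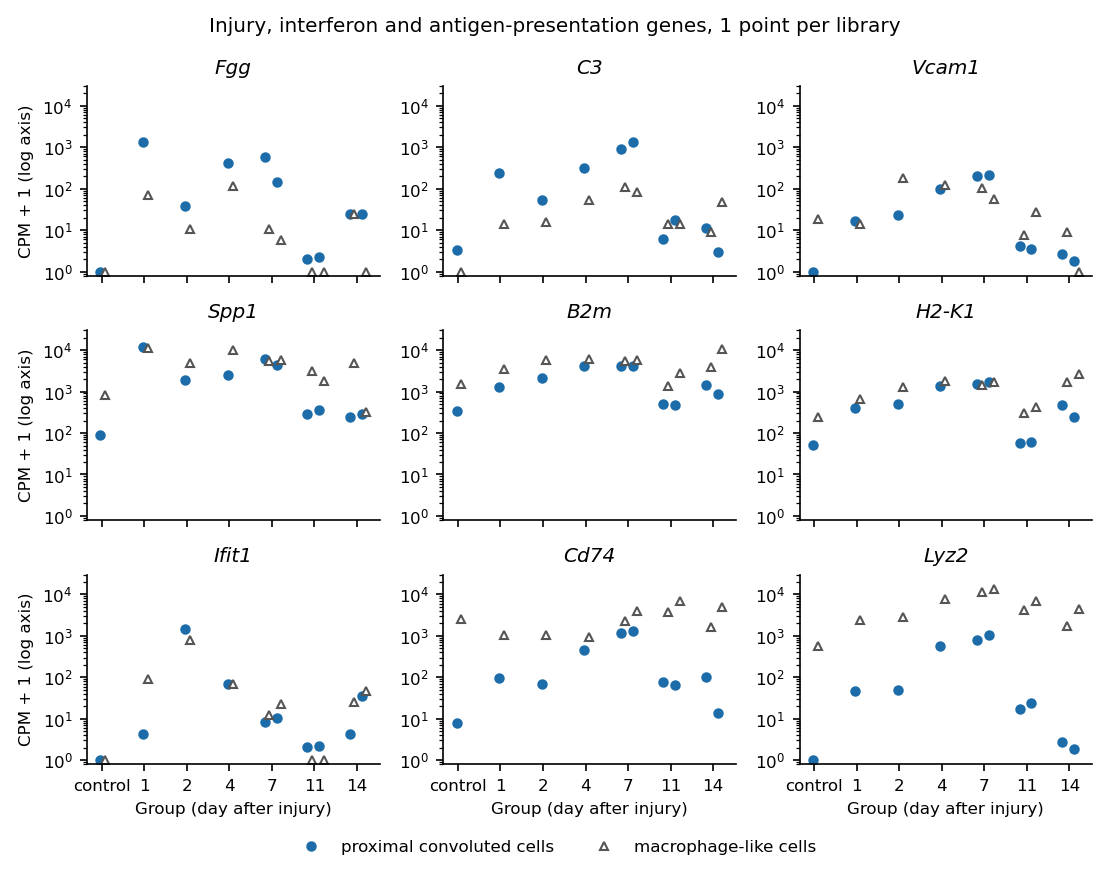
Plain CPM plus 1 (log axis) of 9 genes by group in proximal convoluted cells (filled points) and in macrophage-like cells of the same library (open triangles), with 1 point per library. Fgg and C3 lie above the macrophage-like cells in each library of days 1 to 7, Spp1 lies near or below them, Lyz2 lies below them, Ifit1 peaks on day 2, and H2-K1 and B2m approach the macrophage-like level on days 4 and 7.

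Many carriers and enzymes rose between day 7 and day 11. Of 11101 genes, 775 (6.98%) rose and 508 (4.58%) fell (edgeR, 1283 or 11.6% in all, with 769 without day 7 replicate 1 and 842 without replicate 2). The amino acid and small molecule list rose in 15 of 21 genes and fell in 1 (median 1.99), gluconeogenesis and fructose rose in 7 of 9 and fell in 1, basolateral carriers rose in 7 of 15 and fell in none, and fatty acid oxidation rose in 7 of 19 and fell in none. Apical carriers rose in 6 of 16 and fell in 2, brush border genes rose in 3 of 15 and fell in 2 (median -0.02), and endocytosis genes rose in 2 of 10 and fell in 1. Slc22a6 rose by 2.37 (adjusted p 4.5e-07), Slc22a8 by 3.18 (adjusted p 5.7e-06) and Pck1 by 2.35 on the log2 scale (adjusted p 1.8e-07, all edgeR). Ces1f, a carboxylesterase, was among the 5 genes that rose most, from 34.2 and 118 to 816 and 709.6 CPM (log2 change 3.23, SE 0.30, adjusted p 1.8e-07, edgeR), and by 4.47 without day 7 replicate 2. Slc22a6, Slc22a8 and Pck1 had day 11 values above both day 7 values. So had Ces1f, for which this was a condition of being named. The proximal transcription factors had none of 10 genes called in either direction. Transcripts of other tubule segments rose with the carriers and enzymes. They were 3 of 3 thick limb markers, Pvalb among 3 distal convoluted markers, Atp6v1g3 and Aqp3 among 6 of the collecting duct, and 4 of 6 straight-segment genes, and no gene of these lists fell. Thick limb markers summed to 95.3 and 200 plain CPM on day 11 and distal convoluted markers to 61.1 and 177. Their part in the rise was not tested.

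Respiratory chain genes encoded in the nucleus rose in nearly the whole list. Of 20 such genes 18 rose from day 7 to day 11 and none fell (median 1.10). On day 11, 14 of 20 were above the control with none below, where 7.18% of all genes were higher and 6.94% lower. Cox8a, a subunit of cytochrome c oxidase, was at 986 CPM in the control, 884, 1395 and 1185 CPM in the libraries of days 1, 2 and 4, 917 with 834 for day 7, 2167 with 2399 for day 11, and 1792 with 1945 for day 14. Both day 11 values lay above all other libraries (log2 change 1.39, SE 0.19, adjusted p 2.1e-05 against day 7, edgeR, and log2 change 1.21, adjusted p 0.001, against the control). Mitochondrial share was part of the rule for keeping cells, so the mitochondrially encoded genes are not read, and members with at most 25% mitochondrial UMIs kept the calls of Cox8a in both comparisons.

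Injury and antigen-presentation genes went down over the same 4 days. The injury list fell in 23 of 38 genes and rose in 1, and the interferon and MHC class I list fell in 13 of 18 and rose in none. C3 fell by 6.30 on the log2 scale (SE 0.40, adjusted p 9.6e-10, edgeR), H2-K1 fell by 4.30 (adjusted p 1.2e-09) and H2-Ab1 fell by 4.15 (adjusted p 8.4e-07, edgeR). Fgg had 2 UMIs in both day 11 libraries together and was 198-fold lower, with a counting interval of 53.5 to 1654, and its fitted change was -6.42 without day 7 replicate 1 and -8.36 without replicate 2. Without 1 library the log2 change of C3 ranged from -7.23 to -5.70. All 9 macrophage markers fell with them, Lyz2 to 19.6 and 24.7 CPM, as did the neutrophil marker S100a8 and the T and NK cell marker Ccl5. The part of RNA of these other cells in the fall was not tested.

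**Figure D4:**
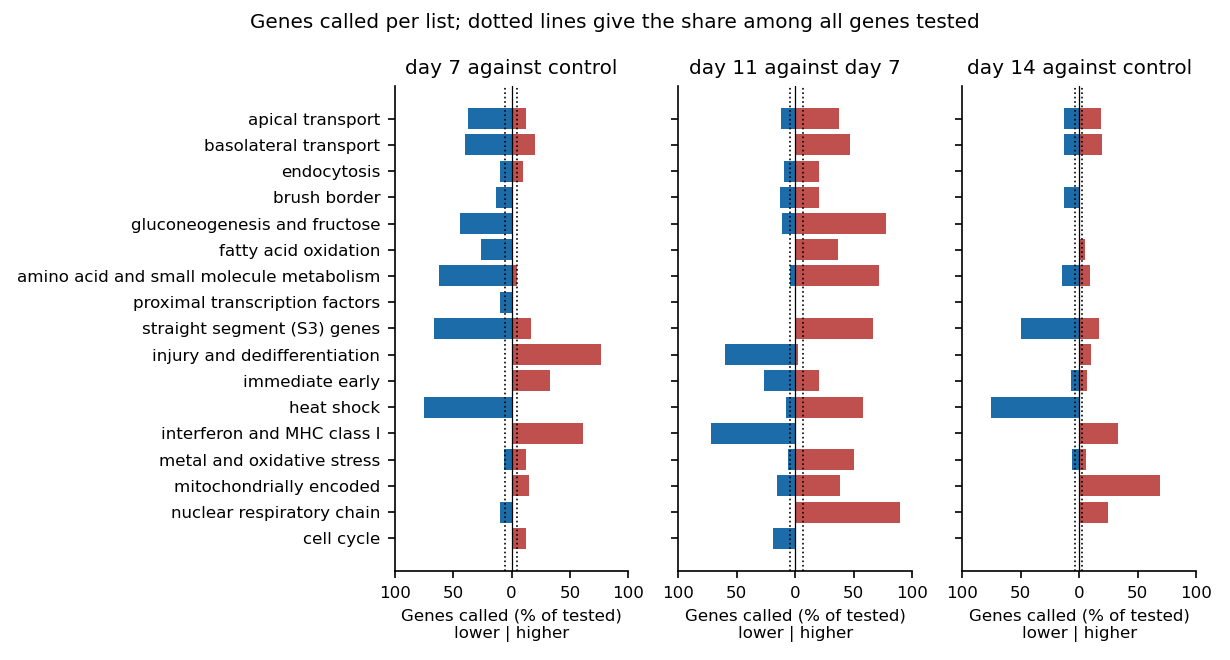
Share of tested genes (%) in each of 17 lists that were called higher (red, to the right) or lower (blue, to the left) by edgeR at an adjusted p of 0.05 in 3 comparisons of proximal convoluted cells, with dotted lines at the share among all 11101 genes. The amino acid, gluconeogenesis, fatty acid oxidation and basolateral carrier lists extend further to the left on day 7 against the control and further to the right on day 11 against day 7, while the injury and interferon lists do the opposite. The mitochondrially encoded list was used in keeping cells and is shown as a description.

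On day 11 the convoluted cells differed from the control in other ways than on day 7. Against the control 797 genes (7.18%) were higher and 770 (6.94%) lower (edgeR, 1567 or 14.1% in all, with 987 without day 11 replicate 2). Miox was at 2646 CPM in the control, 116, 2428 and 1001 CPM in the libraries of days 1, 2 and 4, 313 with 1351 for day 7, 11203 with 8356 for day 11, and 2652 with 4173 for day 14 (log2 change 1.89, SE 0.46, adjusted p 0.0074, edgeR, but adjusted p 0.19 by DESeq2). Both day 11 libraries exceeded every other library, and the day 14 libraries lay at and above the control. Gadd45g, a growth arrest and stress gene, was at 116 CPM in the control, 219.5, 231 and 247 CPM in the libraries of days 1, 2 and 4, 159.5 with 216 for day 7, 1019 with 1163 for day 11, and 284 with 302 for day 14 (log2 change 3.23, SE 0.26, adjusted p 4.3e-07, edgeR), again highest on day 11. In plain CPM, macrophage-like cells held 139.8 of it in the control and 580.4 and 588 on day 11. Convoluted cells held 96.6 plain CPM in the control and 859 and 1055 on day 11. The part of free RNA in this change was not tested. Akr1c18, a hydroxysteroid dehydrogenase that inactivates progesterone, had no UMI in the control and 153 and 86.5 CPM on day 11, at least 44.9-fold, with 122 and 138 CPM on day 14 and 112 CPM on day 2. Akr1c21, a related enzyme, was at 1327 and 1379 CPM on day 11 against 716 (log2 change 0.92, adjusted p 0.016, edgeR). Genes of this family are similar in sequence, and how reads were split between them is not given in the sources used here.

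Stress-response genes split in direction on day 11. The inducible heat shock genes Hspa1a and Hspa1b, near-identical copies whose counts may be exchanged, were at 271 and 203 and 167 and 100.2 CPM against 28.9 and 53.4 in the control. Hspa1a passed (log2 change 3.03, SE 0.33, adjusted p 1.3e-05, edgeR), and Hspa1b passed but was lost without day 11 replicate 1 (adjusted p 0.13). In plain CPM, macrophage-like cells of these libraries held 362 and 313 of Hspa1a and convoluted cells 229 and 184. The signal was thus not confined to convoluted cells. Other chaperones of the list were lower than in the control. Hspa5, the endoplasmic reticulum chaperone BiP, was at 2417 CPM in the control, 2287, 1440.1 and 818 CPM in the libraries of days 1, 2 and 4, 1219 with 879 for day 7, 553 with 660.2 for day 11, and 858 with 662 for day 14 (log2 change -1.99, SE 0.23, adjusted p 1.6e-05, edgeR), and Dnaja1 was at 881 and 841 CPM against 1898 (log2 change -1.14, SE 0.21, adjusted p 0.0011, edgeR). In all, 4 of 12 heat shock genes were higher and 6 lower than the control on day 11, where 7.18% of all genes were higher and 6.94% lower. On day 7 and again on day 14, 9 of 12 were lower than the control and none higher, where 5.55% and 3.1% of all genes were lower. The control had the highest level of Hspa5 and Dnaja1 among all libraries.

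Genes of the metal and oxidative stress list were higher on day 11 than in the control in 7 of 16 cases and lower in none, where 7.18% of all genes were higher and 6.94% lower. Gpx4, which protects membranes from lipid peroxides, was at 1169.5 and 1002 CPM against 585 (log2 change 0.89, adjusted p 0.012, edgeR), and Gpx1 at 4789 and 4249 against 2288 (log2 change 0.98, adjusted p 0.0069, edgeR). Ftl1, the light chain of ferritin, was at 2099.8 and 2682 CPM against 939.8 (log2 change 1.35, SE 0.24, adjusted p 6.5e-04, edgeR). Of 15 immediate early genes 9 were higher and 1 lower, which is a group that tissue dissociation also induces, and that part was not tested. Gene loss on day 11 was led by Gm26924, Arhgap5, Syne2, Dst and Trip11. Gm26924 was at 11239 CPM in the control, 3005, 2333 and 1137 CPM in the libraries of days 1, 2 and 4, 934 with 1294 for day 7, 1846 with 855 for day 11, and 1779.7 with 1194 for day 14, and Arhgap5 at 141 and 68.6 CPM against 797, so the single control stood above every injured library for Gm26924. Without day 11 replicate 1 the log2 change of Gm26924 moved from -3.06 to -3.72, that of Arhgap5 from -2.91 to -3.53 and that of Syne2 from -2.57 to -3.26.

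Some losses of day 7 persisted on day 11. Lrp2 was still lower than the control, at 1029.6 and 939 CPM against 2633 (log2 change -1.42, SE 0.20, adjusted p 1.2e-04, edgeR). Ggt1, the brush border enzyme that splits glutathione, was at 1408 CPM in the control, 442, 427 and 407 CPM in the libraries of days 1, 2 and 4, 194 with 313 for day 7, 768 with 786 for day 11, and 795 with 754 for day 14 (log2 change -0.86, SE 0.22, adjusted p 0.01, edgeR), and Slco1a1 at 379.9 CPM in the control, 20.8, 6.05 and 20.5 CPM in the libraries of days 1, 2 and 4, 0 with 20.3 for day 7, 57.7 with 70.0 for day 11, and 103 with 89.3 for day 14 (log2 change -2.58, SE 0.28, adjusted p 1.3e-05, edgeR). In Ggt1 and Slco1a1 every injured library lay below the control through day 14. Red cell RNA moved with these values. All 4 globin markers were higher on day 11 than in the control, and summed to 9.81 plain CPM in control members, 691 and 583 on day 11 and 1145 and 48.4 in the 2 libraries of day 7, with Hbb-bs in 21.2% and 20.7% of thinned convoluted cells of day 11 against 24.5% and 19.0% of macrophage-like cells. Of 9 macrophage markers 4 were called higher on day 11 than in the control (Lyz2, Cd52, Cd74 and Apoe). The 9 summed to 201 and 217 plain CPM against 30.9. Egf of 3 thick limb markers, Aqp2 of 6 collecting duct markers and 3 of 6 straight-segment genes were lower, and Akr1c18 of the last list higher. The part of red cell RNA and of these other cells in the day 11 calls was not tested.

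On day 14 fewer genes differed from the control in the main fit, 282 (2.54%) higher and 344 (3.1%) lower (edgeR, 626 or 5.64% in all). Without replicate 2 there were 311. By DESeq2 150 were higher and 102 lower. With only the groups compared in the fit, 1026 of 9782 genes were called on day 14 and 713 of 4603 on day 7. The order of the counts turned there, but day 7 still had the larger share of genes tested. Of the apical carriers 3 of 16 were higher and 2 lower, of the basolateral carriers 3 of 15 and 2, of the amino acid and small molecule genes 2 of 21 and 3, and of the fatty acid oxidation genes 1 of 19 and none. None of 9 gluconeogenesis and fructose genes and none of 10 endocytosis genes was called in either direction. Lrp2 had climbed to 1822 and 1743 CPM (log2 change 0.86, SE 0.17, adjusted p 0.0032 against day 11, and log2 change -0.56, adjusted p 0.11, against the control, edgeR, which passed at 0.021 with only these groups in the fit). The amino acid exchanger genes Slc7a7, Slc7a8 and Slc3a2 were above the control on day 14, after missing the threshold on day 11 (log2 changes 0.67, 0.97 and 0.81, adjusted p 0.086, 0.12 and 0.061, edgeR). Slc7a7 passed there without day 11 replicate 1 (adjusted p 0.020) and Slc3a2 without either day 7 library (0.027 in both cases). On day 14 Slc7a7 had 361 and 381 CPM (log2 change 1.36, SE 0.26, adjusted p 0.003, edgeR), Slc3a2 302 and 309 CPM (log2 change 1.70, SE 0.28, adjusted p 9.8e-04, edgeR), Slc7a8 111 and 125 CPM (log2 change 2.44, SE 0.37, adjusted p 3.8e-04, edgeR) and Slc15a2 70.2 and 67.9 CPM (log2 change 2.16, SE 0.36, adjusted p 0.0012, edgeR). Slc15a2 was near the control on day 11 and rose again to day 14 (log2 change 2.26, SE 0.31, adjusted p 8.7e-05, edgeR). Slc7a7 also passed from day 11 to day 14 (log2 change 0.69), but missed the threshold without day 11 replicate 1 or without either day 14 library. Slc7a8 rose as well (log2 change 1.47, SE 0.27, adjusted p 0.0012, edgeR), as did Slc3a2 (log2 change 0.89, SE 0.21, adjusted p 0.011, edgeR), which missed the threshold without day 11 replicate 2 (adjusted p 0.11).

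Antigen-presentation genes rose again between day 11 and day 14. The interferon and MHC class I list had 8 of 18 genes higher and 1 lower than on day 11, where 311 of all genes (2.8%) were higher and 515 (4.64%) lower by edgeR (7.44% in all) and 106 higher and 307 lower by DESeq2, and 6 of 18 higher than the control with none lower. H2-K1 rose by 2.58 on the log2 scale (adjusted p 7.6e-06, edgeR) and was 2.70 above the control (adjusted p 6.9e-05, edgeR), and B2m by 1.22 (adjusted p 7.5e-04) and 1.70 (adjusted p 9.5e-04, edgeR). Of 9 macrophage markers 6 were lower and 1 higher than on day 11. Their sum was 278 and 142 plain CPM on day 14 against 201 and 217 on day 11, and C1qa was at 0 in both day 14 libraries. The interferon-stimulated genes were carried by replicate 2. Ifit1 was at 3.76 and 39.5 CPM and Ifi27, a mitochondrial interferon-induced protein, at 22.6 CPM in the control, 125, 474 and 558 CPM in the libraries of days 1, 2 and 4, 159.5 with 252 for day 7, 50.3 with 35.7 for day 11, and 109.7 with 704 for day 14. Ifi27 passed against the control (log2 change 4.17, SE 0.76, adjusted p 0.0023, edgeR), with a log2 change of 2.27 and an adjusted p of 9.7e-05 without replicate 2, while Ifit1, Ifit3 and Rsad2 lost their calls without it (adjusted p 0.18, 0.19 and 0.18). Fgg was at 26.3 and 26.1 CPM on day 14, at least 9.64-fold over the control floor.

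Several genes that were highest on day 11 fell to day 14. All 4 globin markers fell too, from sums of 691 and 583 plain CPM to 187 and 111, and 3 of 4 were still above the control, and their part in these changes was not tested. Miox fell by 1.52 on the log2 scale (SE 0.35, adjusted p 0.0079, but 0.30 by DESeq2), Gadd45g fell by 1.89 (adjusted p 2.6e-06) and Hspa1a was at 8.78 and 7.44 CPM (adjusted p 8.9e-10, all edgeR). Ass1, the argininosuccinate synthase of arginine production, was at 1448 CPM in the control, 332, 1068 and 423 CPM in the libraries of days 1, 2 and 4, 370.4 with 509 for day 7, 1656 with 2031 for day 11, and 666 with 881 for day 14 (log2 change -1.25, SE 0.19, adjusted p 2.8e-04, edgeR). Its day 14 values were below the control and day 11 and above day 7. Inmt was at 295 and 354 CPM on day 14 after 723 and 797 on day 11 (log2 change -1.23, SE 0.21, adjusted p 7.5e-04, edgeR). Tmsb10 and Lyz2 were also among the 5 that fell most, with the actin-binding Tmsb10 at 8.15 and 10.7 CPM after 47.9 and 74.1, and so were Emd, an inner nuclear membrane protein, at 86.5 and 79.1 after 263 and 316 CPM, and Gm20091 at 84.6 and 85.1 after 276 and 364 CPM. Among the mitochondrially encoded genes, which the rule for keeping cells used, mt-Co1 was at 13850.5 and 14156 CPM against 5165, given as a description, while the median mitochondrial share of members was 18.6% and 20.2% against 20.6%. Spp1 was still above the control at 263 and 321 CPM (log2 change 1.48, SE 0.28, adjusted p 0.0032, edgeR).

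The change from day 7 to day 11 was set beside that of straight-segment cells in the same libraries. The test was the difference of the 2 changes in edgeR with the library as a block. It used 5 libraries, since day 7 replicate 1 had 1 straight cell, so day 7 is a single library with 87 convoluted and 56 straight cells, and the spread behind each p comes from days 11 and 14. Of 12000 genes, 259 (2.16%) differed, 172 with a larger rise or smaller fall in convoluted cells and 87 the other way. The genes that chose either class were left out of what is read.

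For the carriers and enzymes given here, the change from day 7 to day 11 was more positive in convoluted than in straight cells. Slc22a6 was at 111 CPM for day 7, 562 with 532 for day 11 and 595 with 694 for day 14 in convoluted cells and at 1096 CPM for day 7, 959.8 with 962 for day 11 and 1454 with 1651 for day 14 in straight cells (difference of log2 changes 2.49, SE 0.22, adjusted p 1.4e-14, edgeR). The straight cells of day 7 lay above those of day 11, and the convoluted cells of day 7 lay far below theirs. Pck1 was at 226 CPM for day 7, 992 with 1059.8 for day 11 and 795 with 924 for day 14 in convoluted cells and at 1056 CPM for day 7, 1243 with 1358 for day 11 and 1500.0 with 1646 for day 14 in straight cells (difference 1.89, adjusted p 4.1e-13, edgeR). Lrp2 was at 616 CPM for day 7, 919 with 839 for day 11 and 1670.0 with 1598 for day 14 in convoluted cells and at 1283 CPM for day 7, 785 with 713 for day 11 and 1533 with 1433 for day 14 in straight cells, higher on day 11 than on day 7 in the first and lower in the second (difference 1.29, adjusted p 5.5e-10, edgeR). Kap was at 3362 CPM for day 7, 25667 with 21909 for day 11 and 14999 with 14739.9 for day 14 in convoluted and at 51640.3 CPM for day 7, 78382 with 68321 for day 11 and 71022 with 57183 for day 14 in straight cells (difference 2.32), and no p is given because the 2 day 7 libraries lay far apart in it (359 and 3820.0 CPM in convoluted cells). Inmt, which had no UMI in the other day 7 library, differed by 3.69, likewise with no p. Cyp4b1, at 154 and 521 CPM in the convoluted cells of the 2 day 7 libraries, differed by 1.55, again with no p. G6pc and Slc22a8 differed in the same direction, by 2.33 and 4.02, with 28.5 and 16.3 CPM of Slc22a8 in the convoluted cells of the day 7 libraries. These Slc22a8 values rest on 5 and 4 UMIs, and only the second library entered this comparison.

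H2-K1 and B2m differed in the other direction. H2-K1 was at 1235 CPM for day 7, 59.2 with 60.1 for day 11 and 484 with 253 for day 14 in convoluted cells and at 341 CPM for day 7, 77.0 with 65.6 for day 11 and 267 with 199 for day 14 in straight cells, so it fell more in convoluted cells (difference -2.11, adjusted p 3.7e-10, edgeR). B2m differed by -1.03 (adjusted p 1.7e-08) and Actb, the cytoskeletal actin, by -1.25 (adjusted p 3.5e-11, edgeR). Macrophage RNA differed between the classes in the same library, with Lyz2 on day 7 at 769.8 CPM in convoluted and 65.6 CPM in straight cells. Slc13a1 did not pass (difference -0.24, SE 0.22, adjusted p 0.74, edgeR). Straight cells of day 7 were chosen by Slc7a13 and further S3 markers, so they are the cells that kept those markers, as the convoluted cells are those that kept theirs.

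**Figure D5:**
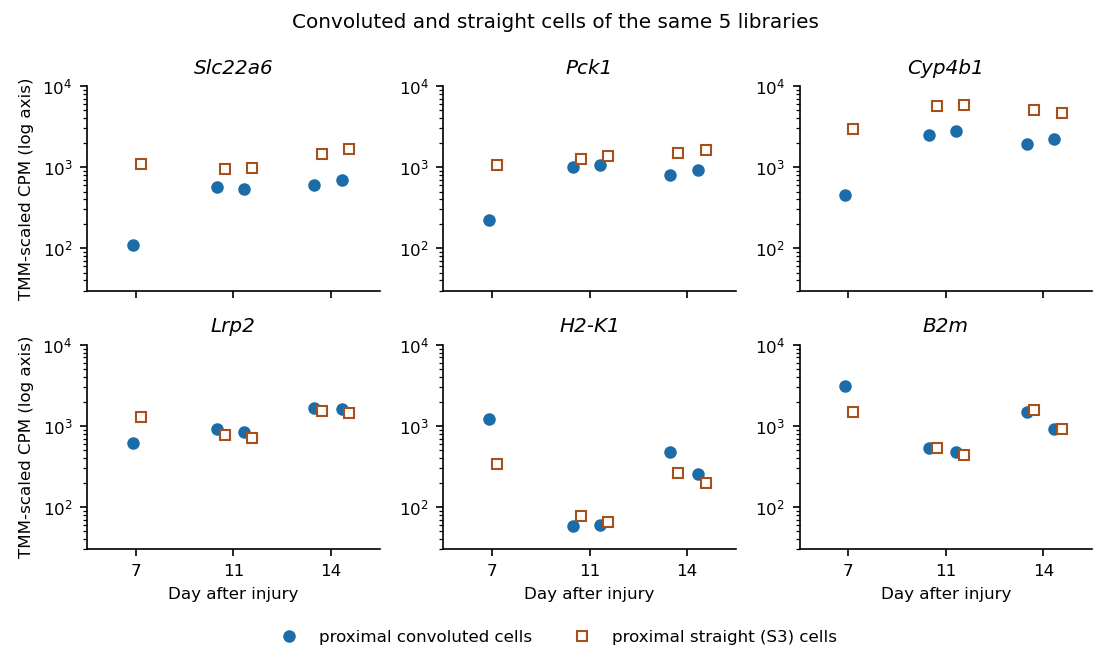
TMM-scaled CPM (log axis) of 6 genes in proximal convoluted cells (filled points) and proximal straight cells (open squares) of the same 5 libraries of days 7, 11 and 14. On day 7 the convoluted cells lie below the straight cells for Slc22a6, Pck1, Cyp4b1 and Lrp2 and above them for H2-K1 and B2m.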

How the data were processed

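Drop-seq libraries of mouse kidney cortex were deposited as tables of UMI counts per gene and cell barcode, 1 table per library. The counts are raw, with no normalization by the authors, from the values themselves. Bowtie2 2.2.7 and the genome build mm10 stand in the submitters' processing notes; the counting rules for similar genes, overlapping genes and strand are not given in the sources used here, so values of paralogues such as the Ifit, Akr1c, Hspa1 and class I genes are uncertain.

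Barcodes needed 500 detected genes and no more than 50% of UMIs from mitochondrial genes, and members were taken by the rule in the report. No doublet caller was run; leaving out the 5% of barcodes with most UMIs was an alternative. Member counts were summed per library and tested with edgeR 4.0.16 (R 4.3.3; TMM, filterByExpr, quasi-likelihood F test, 1 term per group, 3 residual degrees of freedom) at an adjusted p of 0.05. The comparison with straight cells had the library as a block and 2 residual degrees of freedom. DESeq2 1.42.0 was an alternative. Single-library days used a pseudocount of 1 CPM. Plain CPM divides by the summed member UMIs without TMM. Folds against a group with no UMI use a floor of 3 counts over the group. Tests were tried on simulated data.

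Genes were named by a rule: the 5 largest changes per direction, a set of genes always followed, and members of the lists. The largest changes were ranked only among called genes whose average log2 CPM reached 7 and whose compared groups did not overlap. Genes said to have risen or fallen most hold that rank among these only, and their lack of overlap is no result. The members and lists were chosen with earlier results of these data known, so every count over a list, the injury list included, is a description and no test. Members without a UMI of C1qa, C1qb, C1qc, Tyrobp, Fcer1g or Cd52, and a fit of days 7, 11 and 14 alone, were added after the data had been seen.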

Additional observations from a re-analysis of the deposited data

Results flagged for a closer look

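The change from day 7 to day 11 was compared between proximal convoluted and proximal straight cells over 5 libraries, of which 1 was of day 7. The values of 8 genes are given here. The difference of log2 changes, convoluted minus straight, was 2.49 for Slc22a6, 4.02 for Slc22a8, 1.89 for Pck1, 1.55 for Cyp4b1, 3.69 for Inmt and 2.32 for Kap, so the change was more positive in convoluted cells of these libraries. It was -2.11 for H2-K1 and -1.03 for B2m, which fell more in convoluted cells. The single day 7 library gives these values no replicate check on that day. Kap, Inmt and Cyp4b1 differed widely between the 2 day 7 libraries in convoluted cells, so their values are given with no p and no call is read from them.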

How the results depend on the processing

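Summed member UMIs were fewest on day 7, with 81 and 87 cells. Against the main counts of 1165, 1567, 626, 1283 and 826 called genes (day 7, day 11 and day 14 against control, day 11 against day 7, day 14 against day 11), leaving out 1 library gave 681 to 1271, 987 to 1745, 311 to 774, 769 to 1302 and 357 to 883, and DESeq2 gave 680, 836, 252, 887 and 413. With only the groups compared in the fit, where fewer genes were tested, day 7 had 713 and day 14 had 1026 against the control. The order of these counts thus turned, although day 7 still had the larger share of genes tested (713 of 4603 against 1026 of 9782). With at least 3 of 4 markers, day 11 against day 7 had 839 and day 14 against day 11 had 549. A pseudocount of 10 CPM gave 172 genes in place of 261 on day 1. The difference between convoluted and straight cells had 230 to 348 genes without 1 library in place of 259; day 7 replicate 2 could not be left out. Differences between replicates 1 and 2 hardly correlated between days (0.055, 0.048 and -0.015), which cannot settle whether the replicate numbers pair samples. A replicate block gave 1205 genes for day 11 against day 7 and 723 for day 14 against day 11, sharing 1118 and 700 with the main calls.

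The share of convoluted cells with thinning was 4.54% in the control, 24.1% for day 2, 1.52% for day 7 and 6.91% for day 11. With at least 3 markers it was 3.05% in the control and 1.18%, 17.9%, 4.24%, 0.763%, 4.01% and 8.73% on days 1, 2, 4, 7, 11 and 14. With at most 25% mitochondrial UMIs it was 9.91% in the control, 25.9% on day 2 and 9.39% on day 11, so that day 11 lay below the control. Without 1 library it was 1.69% to 2.24% on day 7, 8.63% to 10.2% on day 11 and 13.2% to 17.9% on day 14. Mki67 was called higher on day 7 against the control (log2 change 3.59, adjusted p 0.014, edgeR). It turned to -5.19 (adjusted p 0.59, edgeR) in members without a UMI of C1qa, C1qb, C1qc, Tyrobp, Fcer1g or Cd52. The convoluted minus straight difference of Spp1 was -1.02, or -1.80 without day 11 replicate 1 and 0.065 without day 11 replicate 2. The cause of these shifts was not tested.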
